A study of Mus musculus with 72 samples.

Results

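The genes described here were 10 heat shock genes that make chaperones of the cytosol and of mitochondria: Hspa1a, Hspa1b, Hsph1, Dnajb1, Hspa8, Hsp90aa1, Hsp90ab1, Hspd1, Hspe1 and Hspa9. They were chosen by symbol, without use of measured values, and are 10 of the 51826 genes in the count files. The libraries came from E14TG2a cells, a mouse embryonic stem cell (mESC) line, grown on gelatin in 2i + LIF medium at 37°C. Every culture received 4-thiouridine (4sU), a uridine analog that is built into RNA made during labeling, for 15, 20, 30, 40, 60 or 120 min. Cells were then opened in steps with detergents, which gave a cytosolic fraction, a membrane fraction holding endoplasmic reticulum and mitochondria, and a nuclear fraction, beside a whole-cell extract. There were 18 libraries per fraction and 72 in all, with 2 libraries per group from independently passaged cultures. Replicates 1 and 2 covered 15, 20 and 30 min, replicates 3 and 4 covered 20, 40, 60 and 120 min, and replicates 5 and 6 covered 60 and 120 min. The labels give a dose of 500 µM 4sU up to 40 min and 100 µM at 60 and 120 min, but the sources differ on the dose of some libraries of these later times. No comparison here is therefore named after a dose, and replicate set, culture and possibly dose cannot be told apart. By the labels, comparisons of 60 or 120 with 20 min also change the dose, so that time and labeled dose cannot be told apart there. All groups were 4sU-labeled, none was heated, and libraries without 4sU were not analysed here.

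Heat shock proteins are chaperones that bind unfolded or newly made proteins and help them reach or regain their fold. Constitutive members such as Hspa8 and Hsp90ab1 serve all growing cells and are abundant in proliferating cells, while stress-inducible members such as Hspa1a and Hspa1b are switched on by heat shock factor 1 (HSF1) when unfolded proteins accumulate. HSF1 binds DNA as a trimer at repeats of the unit GAA in alternating orientation, known as heat shock elements. In mitochondria, Hspa9 (mortalin) pulls imported proteins into the matrix, and Hspd1 (Hsp60) with its lid Hspe1 (Hsp10) forms a folding chamber there, so that all 3 are made from nuclear genes and translated outside the organelle.

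Promoter sequences are shown first, because they were searched for the kind of element by which HSF1 acts on this family. They come from RefSeq on GRCm38.p6, run from 250 bases before to 50 bases after an annotated start, and were at hand for 6 of the 10 genes, while Hspa8, Hsp90aa1, Hsp90ab1 and Hspa9 had no entry. Both strands were searched for 3 units in a row (GAANNTTCNNGAA or TTCNNGAANNTTC) and for 2 units (GAANNTTC or TTCNNGAA), and matches were allowed to overlap, so that every match of 3 units also holds 2-unit matches. Of 32851 promoter windows of this length, 0.603% held a match of 3 units and 15.1% a match of 2 units. Capitals mark the matches of 3 units and, in Hspa1b, which had none, the match of 2 units.
Hspe1, chr1:55087898-55088197, plus strand, with 2 overlapping matches of 3 units that begin 89 and 84 bases before the start: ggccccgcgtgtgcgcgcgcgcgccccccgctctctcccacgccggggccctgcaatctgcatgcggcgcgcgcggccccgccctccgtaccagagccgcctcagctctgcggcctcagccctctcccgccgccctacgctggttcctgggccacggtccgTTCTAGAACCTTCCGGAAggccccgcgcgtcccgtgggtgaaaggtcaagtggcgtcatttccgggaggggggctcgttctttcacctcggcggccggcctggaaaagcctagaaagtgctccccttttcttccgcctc
Hsph1, chr5:149636266-149636565, minus strand, with 1 match of 3 units that begins 15 bases after the start, and 1 separate match of 2 units 54 bases before it that is left in lower case: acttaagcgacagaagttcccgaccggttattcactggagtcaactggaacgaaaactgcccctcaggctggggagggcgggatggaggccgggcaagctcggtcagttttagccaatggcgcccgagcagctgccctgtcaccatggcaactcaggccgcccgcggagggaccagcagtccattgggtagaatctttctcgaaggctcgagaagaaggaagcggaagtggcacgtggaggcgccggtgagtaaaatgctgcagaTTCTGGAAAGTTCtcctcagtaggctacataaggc
Hspa1b, chr17:34959189-34959488, minus strand, with 1 match of 2 units that begins 104 bases before the start: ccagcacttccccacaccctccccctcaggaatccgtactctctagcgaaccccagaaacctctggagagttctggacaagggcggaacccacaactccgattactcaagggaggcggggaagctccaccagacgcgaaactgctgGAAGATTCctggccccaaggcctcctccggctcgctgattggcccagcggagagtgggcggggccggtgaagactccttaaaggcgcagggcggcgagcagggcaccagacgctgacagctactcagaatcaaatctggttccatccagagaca
Hspd1 and Hspe1 lie head to head on chromosome 1, and the element printed for Hspe1 also lay in 1 of the 2 Hspd1 windows, 144 bases before its start. The window of Hspa1a differed from that of Hspa1b at 4 of 300 positions and held the same 2-unit match at the same place. The 2 windows of Dnajb1, which encodes an Hsp40 cochaperone that delivers substrates to Hsp70, held no match. A match describes letters in these windows and was not tested for binding.

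On GRCm38, Hspa1a (chr17:34969190-34972156) and Hspa1b (chr17:34956436-34959238) were neighbours of a single exon each, and Hsp90ab1 (chr17:45567775-45573271) lay on the same chromosome. The other genes were Hsph1 (chr5:149614287-149636376), Dnajb1 (chr8:83608193-83612653), Hspa8 (chr9:40800984-40810087), Hsp90aa1 (chr12:110690605-110702728), Hspd1 (chr1:55077835-55088243), Hspe1 (chr1:55088132-55091307) and Hspa9 (chr18:34937414-34954357). The spans of Hspd1 and Hspe1 overlapped on opposite strands, and the libraries were stranded. Hspa1a and Hspa1b are near-identical copies. Of all stretches of 75 bases, the read length, 52.7% of those in Hspa1a were also in Hspa1b, and their 3′ UTRs shared none. The count files tally reads without a unique alignment apart from the gene counts, at 19.4 to 34.9% per library. Reads that align equally to both copies are thus missing from the gene counts, so that the levels of this pair can be too low. How the counts of mutations treated such reads is uncertain, and the values of this pair are given with these limits.

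The libraries held 13185351 to 52975732 reads assigned to genes (median 21494524.5). The 8 stem cell markers were high in whole cells, with Pou5f1, which encodes the pluripotency factor Oct4, at 640 to 1471 CPM (read counts scaled to library size). The summed level of 5 fibroblast markers was 1.78 to 12.7 CPM, with Col1a2, Col3a1 and Postn at 0 in some libraries. In the nucleus, 1 library of 20 min, replicate 3, stood apart, with 40.0% of T positions in introns against 14.7 to 30.2% in the other nuclear libraries. In whole cells, 2 libraries went against their labels in the share of new RNA, the measure defined below. In the library labelled 60 min, replicate 6, the median share of all genes was 0.374, and in the library labelled 120 min, replicate 6, it was 0.175. All 10 heat shock genes had a lower share in the second of these than in the first, although all 10 had a higher share at 120 than at 60 min in replicate 5. Whole-cell shares and levels of replicates 5 and 6 are given with that limit.

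The genes fell into 3 tiers of level. Levels are given as TPM, scaled to library size and to the joint length of all annotated exons of a gene. This length can exceed that of 1 transcript, as in Hspe1 (1474 against 774 bases) and Hsph1 (7266 against 3802 bases). The order of genes close in level can depend on that choice. In whole cells, Hsp90ab1, the constitutive cytosolic Hsp90, stood at 5031 ± 1969 (SD, n = 18), rank 16 among 51633 genes. Hsp90aa1, the inducible Hsp90, stood at 2745 ± 1058, and Hspa8, the constitutive Hsp70, at 1680 ± 572. The mitochondrial genes followed, with Hspd1 at 1092 ± 412, Hspa9 at 583 ± 189 and Hspe1 at 520 ± 98.9. Each of the upper 4 genes was above the next in all 18 libraries, although the ranges over libraries overlapped. Hspa9 was above Hspe1 in 13 of 18 libraries, and the order of these neighbours differed between fractions, since Hspe1 had the higher mean in the cytosol and the membrane fraction. A second tier held Hsph1, an Hsp110 that recharges Hsp70 with ATP, at 47.9 ± 17.01 and Dnajb1 at 41.0 ± 13.4, and their ranges overlapped. The inducible Hsp70 genes formed the third tier, with Hspa1b at 2.34 ± 1.00 and Hspa1a at 0.521 ± 0.245.

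The span from the highest to the lowest tier was present in every fraction, and the 10 genes together took a median of 1.49% of reads in whole cells, 1.32% in the nucleus, 1.51% in the cytosol and 0.932% in the membrane fraction. The counts behind the inducible pair were small, with 2 to 68 reads of Hspa1a and 13 to 180 reads of Hspa1b per library, whereas Dnajb1 had 521 reads or more. In whole cells Hspa1b ranged from 1.31 to 4.93 CPM with a median of 2.22, and Hspa1a from 0.175 to 1.02 CPM with a median of 0.543. These ranges hold the libraries of all labeling times, and the plot of levels per library shows both genes apart from the other 8 genes throughout.

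**Figure D1:**
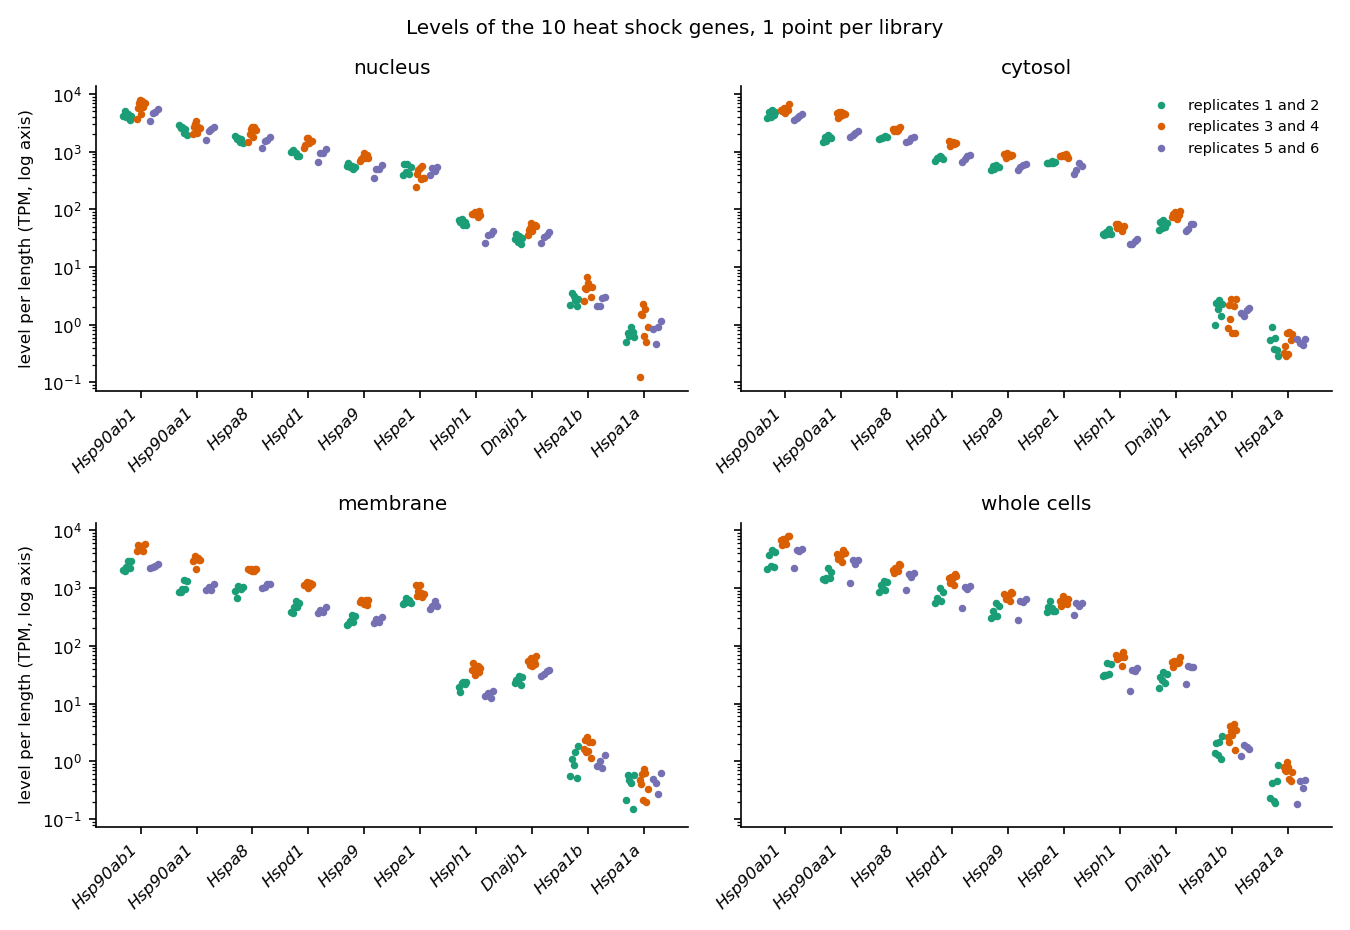
Levels of the 10 genes in TPM on a log axis, 1 panel per fraction and 1 point per library, with the replicate sets told apart by color. Hsp90ab1, Hsp90aa1 and Hspa8 lie on top in each panel, and Hspa1b and Hspa1a lie lowest, at means of 2.34 and 0.521 TPM in whole cells.

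The first comparison asked whether levels changed with the length of 4sU labeling, within a replicate set. By the labels, the dose also changed in the comparisons of 60 and 120 with 20 min in replicates 3 and 4, in every fraction. Time and labeled dose cannot be told apart in these. The comparisons of 30 with 15 and of 120 with 60 min kept the labeled dose. A gene was called where its adjusted p from edgeR was under 0.05 and its log2 change was over 0.5 in either direction. In whole cells, no heat shock gene was called in the comparisons of 30 with 15, 60 with 20 and 120 with 20 min or of 120 with 60 min, where 0%, 0%, 0.113% and 0% of 16858 genes were called. At 120 min against 20 min in replicates 3 and 4, the log2 changes of the 8 genes other than Hspa1a and Hspa1b lay between 0.09 and 0.40, with standard errors up to 0.25. The largest was that of Hspa8, with 3014 and 2897 CPM at 20 min and 3876 and 3545 CPM at 120 min (0.40 ± 0.15 SE, adjusted p = 0.364). The samples did not overlap, but the difference did not pass the test. Of the 10 genes, 2 had an unadjusted p under 0.05, beside 9.82% of all genes.

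The inducible Hsp70 pair did not pass either. Hspa1b was at 2.49 and 2.29 CPM at 20 min and at 1.52 and 3.31 CPM at 120 min in whole cells, with a log2 difference of 0.12 whose 95% interval (from the SE of the fit) ran from -0.68 to 0.92. Hspa1a was at 0.786 and 0.778 CPM at 20 min and at 0.455 and 0.653 CPM at 120 min, and its interval ran from -1.38 to 0.59. The groups overlapped in Hspa1b. In Hspa1a, which had few reads, both late libraries lay below both early ones, without a call. The intervals cover changes in either direction.

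In the nucleus, 1 of the 10 genes was called over labeling time. Dnajb1 was at 33.6 and 39.6 CPM at 20 min and at 48.8 and 56.2 CPM at 120 min in replicates 3 and 4, so that both late libraries lay above both early ones. It rose by 0.68 ± 0.15 on the log2 scale (SE, adjusted p = 0.03), in a comparison where 2.91% of 17810 genes were called and 1.56% were called upward. The call was lost when replicate 1, 2, 4, 5 or 6 was left out, with adjusted p from 0.0686 to 0.098 and log2 changes from 0.56 to 0.66. Without replicate 3, whose 20 min library had the high intron share, the change was 0.70 (adjusted p = 0.0352).

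The other abundant genes had the same sign in the nucleus without a call. At 60 against 20 min, all 10 had log2 differences above 0, from 0.19 to 0.75, and 7 had an unadjusted p under 0.05, as had 19.4% of 17810 genes, while 0% of genes were called. Without replicate 3, 3 of the 10 genes were called. Other values moved with this difference. Introns held 29.1 to 40.0% of T positions in these nuclear libraries at 20 min and 14.7 to 29.4% at 60 min, and the 52 other chaperone genes tested had a median log2 difference of 0.30, against 0.0012 over all genes. Their part in the result was not tested. Hsp90ab1 showed how far the replicates differed, with 3210 and 4773 CPM at 20 min, 4231 and 7365 CPM at 60 min and 5046 and 7103 CPM at 120 min. Replicate 3 was below replicate 4 at each of these times, and the groups overlapped at 60 min. In the cytosol and the membrane fraction no heat shock gene was called at any time, beside 1.04% of 16284 genes and 0.0741% of 16202 genes at 120 against 20 min and 0% in the other time comparisons. Of the 160 tests of these genes over labeling time, 1 was called and 17 had an unadjusted p under 0.05. A test of whether the change from 60 to 120 min differed between replicate sets called 0% of genes in every fraction.

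Larger differences separated the replicate sets. In whole cells at 120 min, 6 of the 10 genes were higher in replicates 3 and 4 than in replicates 5 and 6, namely Hsph1, Hsp90ab1, Hspd1, Hspa8, Hsp90aa1 and Hspa9, and none was lower, where 21.6% of 16858 genes were called and 11.5% were called upward. Hsph1 was at 190 and 154 CPM in replicates 3 and 4 and at 104 and 109 CPM in replicates 5 and 6, without overlap. It was higher by 0.89 ± 0.16 on the log2 scale (adjusted p = 0.000841). Hspd1 was at 1604 and 1407 against 979 and 1055 CPM (0.77 ± 0.14, adjusted p = 0.00118). Hsp90ab1 was at 8010 and 7912 against 5088 and 5245 CPM (0.82 ± 0.19, adjusted p = 0.00531). At 60 min, 3 of the 10 genes were higher, Hsph1, Hsp90ab1 and Hspd1, where 17.3% of genes were called. These whole-cell calls rested on single replicates, since 0 genes were called at either time without replicate 3, 2 at 120 min without replicate 4 and 3 at 120 min without replicate 5. At 60 min, 0 were called without replicate 5 and 1 without replicate 4 or replicate 6. These comparisons hold the 2 whole-cell libraries of replicate 6 that went against their labels, and without replicate 6 the count at 120 min was 5.

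The membrane fraction gave the largest differences between sets. At 120 min Hsp90aa1 was at 5101 and 4563 CPM in replicates 3 and 4 and at 1712 and 2076 CPM in replicates 5 and 6, and was higher by 1.41 ± 0.20 on the log2 scale (adjusted p = 0.000169). Hspd1 was higher by 1.26 ± 0.16 (1224 and 1162 against 483 and 555 CPM) and Hsph1 by 1.24 ± 0.18 (108 and 113 against 43.3 and 53.3 CPM). In none of these did the samples overlap. Hsp90ab1, Hspa9 and Hspa8 were higher by 0.84, 0.80 and 0.68, so that 6 of the 10 genes were called, beside 24.8% of 16202 genes. At 60 min 5 were called, beside 20.7%, and leaving out single replicates gave 5 or 6 calls at 120 min and 3, without replicate 5, to 6 at 60 min.

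In the cytosol at 60 min, 7 of the 10 genes were higher in replicates 3 and 4, beside 38.7% of 16284 genes called and 17.9% called upward. Hsp90aa1 was again first, at 7189 and 5970 against 3538 and 3581 CPM (1.18 ± 0.18), and Hspe1 was at 494 and 465 against 306 and 338 CPM (0.86 ± 0.15). Without replicate 3 the count was 4. At 120 min 4 were higher, beside 26% of genes, and this count ran from 1 without replicate 6 to 7 without replicate 4 and was 7 with a replicate block. The nucleus differed from these. There, 2 of the 10 genes were called at each time, beside 20.3% and 22.2% of 17810 genes, and they went in opposite directions. At 120 min Hsph1 was higher (196 and 193 against 119 and 120 CPM, 0.71 ± 0.19, adjusted p = 0.0138) and Hspe1 was lower (147 and 170 against 291 and 312 CPM, a difference of -0.93 ± 0.24, adjusted p = 0.013). No gene was called there without replicate 5 or without replicate 6 at either time, nor at 60 min without replicate 3, and 1 was called at 120 min without replicate 4. In replicates 3 and 4 at 60 min, Hspe1 was lower in the nucleus (-0.75 ± 0.24) and higher in the cytosol of the same cultures.

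The sets also differed before 60 min. At 20 min, the time that replicates 1 to 4 share, whole-cell Hsp90aa1 was at 2594 and 2752 CPM in replicates 1 and 2 and at 5151 and 4788 CPM in replicates 3 and 4, which is given as values only. Other properties of the libraries moved with the sets. Introns held 3.40 to 3.89% of T positions in the cytosolic libraries of replicates 3 and 4 at 60 and 120 min and 6.33 to 9.24% in those of replicates 5 and 6. In whole cells these values were 7.89 to 8.70% and 14.5 to 15.2%. The deposited conversion rate, at which T is read as C in new RNA, differed as well. At 60 and 120 min it was 5.83 to 12.2% in replicates 3 and 4, over all fractions. In replicates 5 and 6 it was 2.38 to 3.99%, although the labels give 100 µM for all of these libraries. The paper excluded samples labeled at its higher dose for more than 60 min, where it found changes in gene levels. Which dose the 120 min libraries of replicates 3 and 4 received was not settled here. The part of these properties in the differences of the heat shock genes was not tested.

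**Figure D2:**
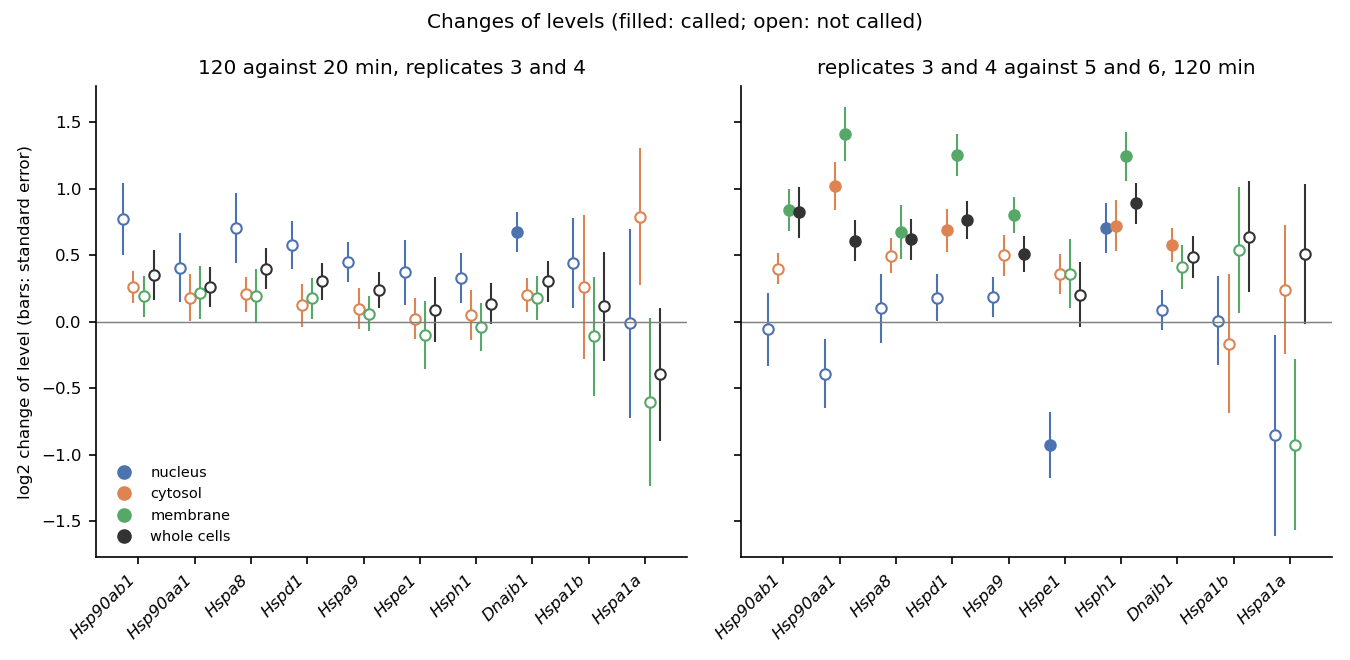
Log2 changes of level of the 10 genes, with standard errors, in the 4 fractions, for 120 against 20 min in replicates 3 and 4 and for the comparison of replicates 3 and 4 with 5 and 6. Filled points passed the test. The labeled dose also changes between 20 and 120 min. Over time only nuclear Dnajb1 is filled, at 0.68, whereas between sets 6 genes are filled in whole cells and in the membrane fraction at 120 min.

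The next comparison asked where the mRNAs lay, over the 54 libraries of the 3 fractions with each labeling time and replicate set as a term. Values are relative to the reads of each fraction, and not amounts per cell. Of the 10 genes, 4 differed between nucleus and cytosol, 2 in each direction, beside 65.2% of 15679 genes called, with 42.9% higher and 22.3% lower in the nucleus. The median log2 difference of all genes was 0.27, so that a gene at 0 lay below most genes. Dnajb1 was at 29.4 to 56.2 CPM in the nucleus with a median of 44.1, and at 55.7 to 103 CPM in the cytosol with a median of 77.3. The ranges overlapped only at their ends, and the nuclear level per length (TPM) was below the cytosolic level in all 18 cultures. The log2 difference was -0.93 ± 0.06 (adjusted p = 6.22e-20), and between -0.71 and -1.22 within single replicate sets.

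Hspe1 was also lower in the nucleus, at 106 to 337 CPM with a median of 228 against 306 to 494 CPM with a median of 387 in the cytosol. The log2 difference was -0.82 ± 0.12 (adjusted p = 3.76e-08), but it was uneven over sets, at -1.44 within replicates 3 and 4 and -0.27 within replicates 5 and 6. Hspa1b and Hspa1a were higher in the nucleus, by 0.71 ± 0.15 (adjusted p = 4.85e-05) and 0.67 ± 0.20 (adjusted p = 0.0026). Hspa1b had a median of 3.21 CPM in the nucleus against 2.16 CPM in the cytosol, with ranges of 2.12 to 5.22 and 0.747 to 2.77 that overlapped. Both calls were lost without replicate 3 (0.29 and 0.46), that of Hspa1a also without replicate 4 (0.26), and both also without the 120 min libraries of replicates 3 and 4 (0.42 and 0.49). Neither was called within replicates 1 and 2 (0.10 and 0.07) or within replicates 5 and 6 (0.44 and 0.58), and both were within replicates 3 and 4 (1.06 and 0.85). Hsph1 had a difference of 0.41 ± 0.07, under the limit of the call, and Hspd1 and Hsp90ab1 were at -0.03 ± 0.08 and -0.11 ± 0.09.

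Between the membrane fraction and the cytosol, none of the 10 genes passed, beside 38% of 15679 genes, and 5 had an unadjusted p under 0.05, beside 72.6% of all genes. The log2 differences ran from -0.39 for Hspa9 to 0.37 for Hspe1, around a median of -0.16 over all genes. Hspe1, whose protein is the smallest of the mitochondrial group, was at 327 to 646 CPM in the membrane fraction with a median of 401 and at a median of 387 CPM in the cytosol. In this fit the other mitochondrial genes did not stand on its side of 0, with Hspd1 at -0.15 ± 0.08 and Hspa9 at -0.39 ± 0.06. The side of 0 depended on the scaling, however. By TPM per culture, the log2 ratio of Hspe1 averaged -0.06 and was above 0 in 5 of 18 cultures. On that scale Hspd1 averaged -0.57 and Hspa9 -0.81, around a median of -0.58 over all genes. The mRNAs of cytosolic chaperones lay between these, with Hspa8 at -0.11 ± 0.08, Hsp90ab1 at -0.09 ± 0.09 and Hsp90aa1 at -0.29 ± 0.14. Without replicate 4, 2 of the 10 genes passed.

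The next measure was the share of new RNA per gene. The paper fits a model with separate steps for processing, nuclear retention and cytosolic decay to such values. No such model was fitted here, so that a low share in the cytosol does not tell slow decay there from long nuclear retention. Alkylated 4sU is sequenced as C instead of T, and the share is the number of T-to-C (T2C) mutations over the number of T positions in the exons of a gene, divided by the deposited conversion rate of the library. No background was subtracted, and since that rate is an estimate, values can exceed 1. The 10 genes spread over most of the range of shares in these cells. At 120 min in the cytosol of replicates 5 and 6, Dnajb1 had shares of 0.820 and 0.837, Hsph1 of 0.372 and 0.333, and Hspa8 of 0.284 and 0.268. Hspd1 followed with 0.206 and 0.191 and Hspa9 with 0.205 and 0.202. Hsp90aa1 had 0.143 and 0.147, Hsp90ab1 0.136 and 0.133, and Hspe1 0.0915 and 0.0942.

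Dnajb1 thus had the highest share of the 8 well-counted genes, above all its neighbours in both libraries, and ranked at percentile 89.5 of 11461 genes, whose median share was 0.369. Hsph1 stood at percentile 47.6, Hspa8 at 35.8, and Hspa9 and Hspd1, which overlapped, at 23.7 and 22.9. Hsp90aa1 and Hsp90ab1 lay at percentiles 12.9 and 10.98 and Hspe1 at percentile 4.1. The inducible pair also had high shares, with 0.527 and 0.821 for Hspa1b, but these 2 libraries differed widely. The T2C counts behind Hspa1a were 0 to 71 per cytosolic library, and behind Hspa1b 2 to 250, against 42 to 6480 for Dnajb1. In the cytosol of replicates 3 and 4 the mean shares followed the same order, except that Hspd1 (0.149) stood above Hspa9 (0.132) and Hsp90ab1 (0.129) above Hsp90aa1 (0.094), pairs whose libraries overlapped or lay close together. Dnajb1 and Hsp90ab1 stood there at 0.708 ± 0.0076 and 0.129 ± 0.0171 (SD, n = 2).

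Shares rose with labeling time in most of the genes. From 20 to 60 min in replicates 3 and 4 the labeled dose changed as well, and its part in those rises was not tested. Hspa1a had too few T positions for the tests, which needed 400 in every library of the comparison, except in the nucleus alone, so that 9 or 10 genes were tested. In the cytosol, 8 of 9 rose from 20 to 60 min in replicates 3 and 4, beside 72.8% of 12255 genes called, and 8 of 9 from 60 to 120 min in replicates 5 and 6, beside 49.6%. In the membrane fraction the counts were 8 and 8 of 9, beside 74.4% and 55.9% of 12703 genes. In whole cells 8 of 9 rose from 20 to 60 min, beside 71.7% of 12452 genes, and 0 did without replicate 3 or without replicate 4. From 60 to 120 min, 0 genes were called without replicate 6 in the cytosol and 1 in the membrane fraction, and 5 without replicate 5 in the cytosol. Shares of all genes rose together, and on shares scaled to an equal median 42 of the 48 called rises turned below 0. Dnajb1 in the cytosol is an example, with 0.0853 and 0.126 at 20 min, 0.377 and 0.311 at 60 min and 0.713 and 0.702 at 120 min in replicates 3 and 4, without overlap between times. Hspe1 went from 0.0192 and 0.0162 to 0.0407 and 0.0406 and then to 0.0861 and 0.0840.

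In the nucleus the pattern was different. From 20 to 60 min, 1 of 10 genes rose, Hsph1, beside 64.1% of 12881 genes called. Hsph1 had shares of 0.167 and 0.125 at 20 min and 0.297 and 0.2002 at 60 min, and its call was lost without replicate 3 or without replicate 4. Dnajb1 had 0.337 and 0.236 at 20 min and 0.447 and 0.381 at 60 min, without overlap but also without a call. The shares of the other 8 genes overlapped between these times, as for Hsp90ab1 with 0.131 and 0.0827 at 20 min, 0.0708 and 0.0701 at 40 min and 0.145 and 0.0811 at 60 min. The nuclear libraries of 20 min differed between sets, however. In replicates 1 and 2, Hsp90ab1 was at 0.0531 and 0.0641 and Hspe1 at 0.0216 and 0.0156, against 0.0795 and 0.0581 for Hspe1 in replicates 3 and 4, and the median share of all genes was 0.0407 to 0.0543 against 0.0910 to 0.115. The part of these libraries in the nuclear pattern was not tested. In replicates 1 and 2, Hsp90ab1 was at 0.0465 and 0.0266 at 15 min and at 0.0871 and 0.103 at 30 min, without overlap with 20 min. The median log2 change of the 10 genes was 0.13, whereas that of all genes was 1.18. From 60 to 120 min in replicates 5 and 6, 7 of 10 rose, beside 31.8%, and 0 did without replicate 5 or without replicate 6.

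In whole cells 0 of 9 genes rose from 60 to 120 min in replicates 5 and 6, where edgeR called 0% of 12452 genes and 2 genes had an unadjusted p under 0.05. This comparison holds the 2 libraries that went against their labels. Dnajb1 had 0.412 and 0.706 in the libraries labelled 60 min and 0.734 and 0.275 in those labelled 120 min, replicate 5 first. All 10 genes had a higher share at 120 than at 60 min in replicate 5. In replicate 6, which holds the libraries in question, all 10 had a lower share at 120 min as labelled. Replicates 3 and 4 gave 0.310 and 0.282 at 60 min and 0.760 and 0.709 at 120 min for Dnajb1.

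**Figure D3:**
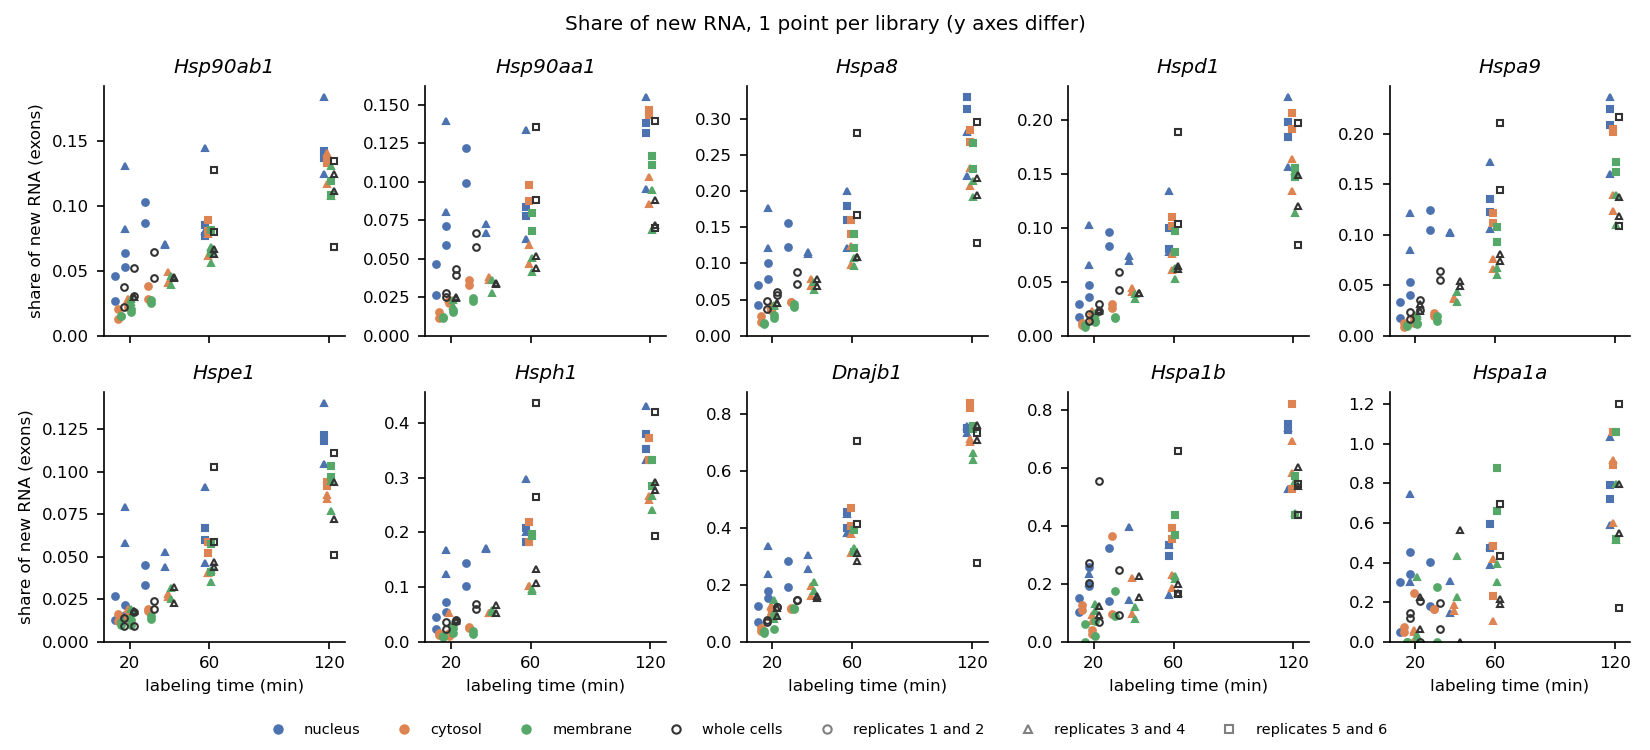
Share of new RNA of the 10 genes against labeling time in minutes, 1 panel per gene and 1 point per library, with fractions by color and replicate sets by marker; the y axes differ between panels. Dnajb1 reaches 0.837 in the cytosol at 120 min, Hspe1 stays at or below 0.141, and the whole-cell points of replicate 6 are inverted between 60 and 120 min.

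New RNA stood higher in the nucleus than in the cytosol at 20 min in every gene tested, although Dnajb1, Hspe1, Hspa8 and Hsp90ab1 turned below 0 when shares were scaled to an equal median over genes. All 9 were called, beside 73.4% of 11735 genes called and 72.7% called higher, with log2 differences from 1.05 to 2.27 around a median of 1.68, and the median of all genes was 1.47. Hsph1 had nuclear shares of 0.0532, 0.0719, 0.167 and 0.125 in replicates 1 to 4 and cytosolic shares of 0.0095, 0.0157, 0.0113 and 0.0520. Nuclear values were above cytosolic ones throughout, and the difference was 2.27 ± 0.25 (adjusted p = 1.72e-11). Hspa9 was at 2.15 ± 0.16, Hspa1b at 2.12 ± 0.48 and Hsp90aa1 at 1.88 ± 0.17. The first place was not stable, since within replicates 3 and 4 Hsph1 was at 2.22 and Hspa9 at 2.42. Within replicates 1 and 2 Hsph1 was at 2.30 and Hspa1b at 2.80. Dnajb1 had the smallest difference, 1.05 ± 0.19, with nuclear shares of 0.154, 0.178, 0.337 and 0.236 and cytosolic shares of 0.115, 0.0946, 0.0853 and 0.126. Its groups did not overlap, and Hspe1 came next with 1.17 ± 0.19. The order of this pair was not stable, since without replicate 1 Hspe1 was at 1.07 and Dnajb1 at 1.16. Within replicates 1 and 2 alone neither was called, with Hspe1 at 0.41 (adjusted p = 0.35 in edgeR) and Dnajb1 at 0.67 (adjusted p = 0.0988), and within replicates 3 and 4 alone Hspa1b was not called (1.37, adjusted p = 0.076).

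The differences shrank with time. At 60 min 2 of 9 genes were called, beside 58.9% of 11735 genes, and the median was 0.35 against 0.75 over all genes. Hsph1 was higher in the nucleus by 0.62 ± 0.21 (adjusted p = 0.00881) and Hspa9 by 0.56 ± 0.15 (adjusted p = 0.00158). Hspa9 had nuclear shares of 0.172, 0.106, 0.136 and 0.123 in replicates 3 to 6 and cytosolic shares of 0.0757, 0.0658, 0.121 and 0.112, so that the groups overlapped, and each nuclear share was above the cytosolic share of its culture. No gene was called without replicate 3, 3 were without replicate 4, and 1 was without replicate 5 or replicate 6. Within replicates 3 and 4 the differences of Hsph1 and Hspa9 were 1.29 and 0.97, and within replicates 5 and 6 they were -0.04 and 0.15. The cytosolic libraries of these sets differed at 60 min. Introns held 3.40 to 3.66% of their T positions in replicates 3 and 4 and 8.93 to 9.24% in replicates 5 and 6. The part of this in the shares was not tested. At 120 min 0 of 9 were called by edgeR, beside 35.3% of genes, with 2 at an unadjusted p under 0.05 beside 44.7% of genes, 1 called without replicate 4, and a median of 0.16 against 0.39. Dnajb1 had a difference of -0.04 at that time, with a 95% interval from -0.38 to 0.30.

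The scale of this comparison bears on it. When the shares of each library were scaled to an equal median over genes, the nuclear surplus of all genes was removed, and 2 of 9 genes were called at 20 min, in opposite directions. On that scale Hsph1 stayed higher in the nucleus (0.65, adjusted p = 0.0112 in edgeR) and Dnajb1 was lower (-0.59, adjusted p = 0.00196). Hspa9 was at 0.496 (adjusted p = 0.000319 in edgeR), just under the limit of 0.5 for a call. Hspe1 was at -0.48, below the median gene, and Hspa8 and Hsp90ab1 were at -0.07 and -0.05. At 60 min Hsph1 and Hspa9 turned to -0.20 and -0.27. Between the membrane fraction and the cytosol at 60 min, 0 of 9 genes were called, and 0 had an unadjusted p under 0.05, beside 13.5% of 11735 genes called. Differences ran from -0.26 to 0.08.

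**Figure D4:**
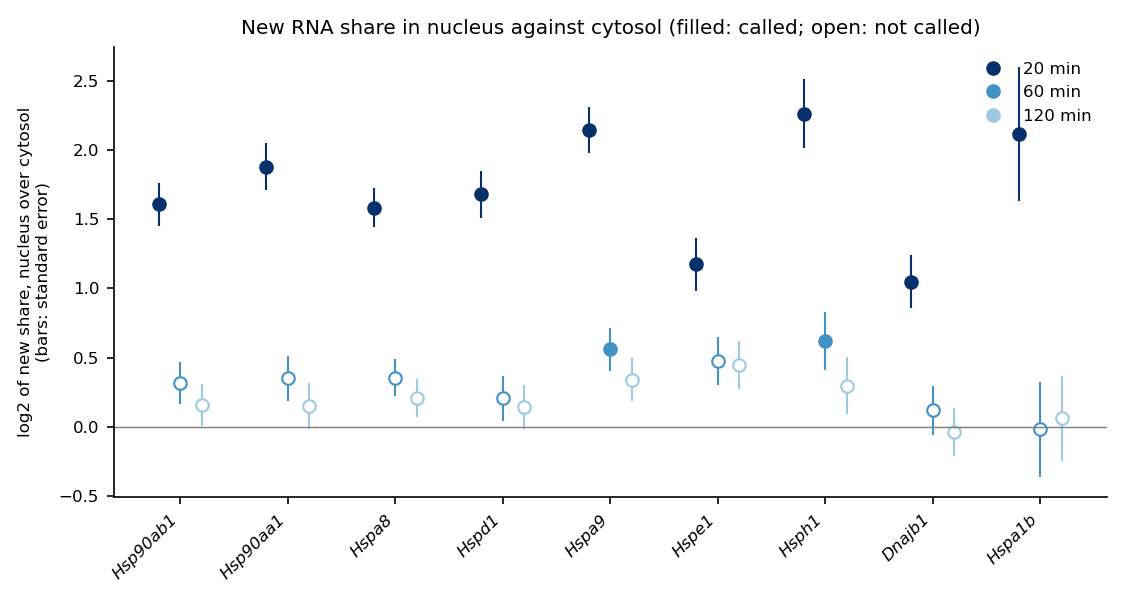
Log2 ratio of the share of new RNA in the nucleus over that in the cytosol for 9 genes at 20, 60 and 120 min, with standard errors; filled points passed the test. On this unscaled share all 9 are filled at 20 min, from 1.05 in Dnajb1 to 2.27 in Hsph1, and none is filled at 120 min. Dnajb1, Hspe1, Hspa8 and Hsp90ab1 turn below 0 at 20 min on shares scaled to an equal median.

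Introns, which mark unspliced RNA, were read in the same way. Of the 10 genes, 8 have introns, since Hspa1a and Hspa1b have none, and in the nucleus at 20 min all 8 had a higher share of new RNA in introns than in exons, beside 90.2% of 11282 genes called. The differences ran from 1.64 to 4.64 around a median of 3.50, and the median of all genes was 2.09. This edgeR test took the introns and exons of a library as separate samples, so that its p-values did not use their pairing. Hspe1 had the largest, 4.64 ± 0.27 (adjusted p = 1.34e-64), with intron shares of 0.690, 0.892, 1.06 and 1.01 in replicates 1 to 4 against exon shares of 0.0216, 0.0156, 0.0795 and 0.0581. Dnajb1 had the smallest, 1.64 ± 0.31 (adjusted p = 1.5e-07), with intron shares of 0.750, 0.385, 0.819 and 0.881 against exon shares of 0.154, 0.178, 0.337 and 0.236. In both genes introns and exons did not overlap.

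Intron shares came near 1 at different times. At 15 min in replicates 1 and 2, Hspa8 introns were at 0.940 and 0.901, Hsp90ab1 at 0.748 and 0.720, Hsp90aa1 at 0.687 and 0.628, and Hspe1 at 0.479 and 0.480. Hspd1 followed at 0.400 and 0.318, whereas Hspa9 was at 0.205 and 0.197 and Hsph1 at 0.154 and 0.149. Dnajb1 differed between its libraries, at 0.624 and 0.927. Hsph1 and Hspa9 are the longest of these genes, with spans of 22.1 and 16.9 kb, followed by Hsp90aa1 (12.1 kb), Hspd1 (10.4 kb), Hspa8 (9.10 kb), Hsp90ab1 (5.50 kb), Dnajb1 (4.46 kb) and Hspe1 (3.18 kb). Hsph1 and Hspa9 also had the lowest intron shares at 15 min. Among the others the shares did not follow this order. Hspe1, the shortest, lay below Hspa8, Hsp90ab1 and Hsp90aa1, and Hsp90aa1 lay above the shorter Hspd1. The part of gene length in these shares was not tested. By 60 min all 8 lay between 0.907 and 1.28.

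**Figure D5:**
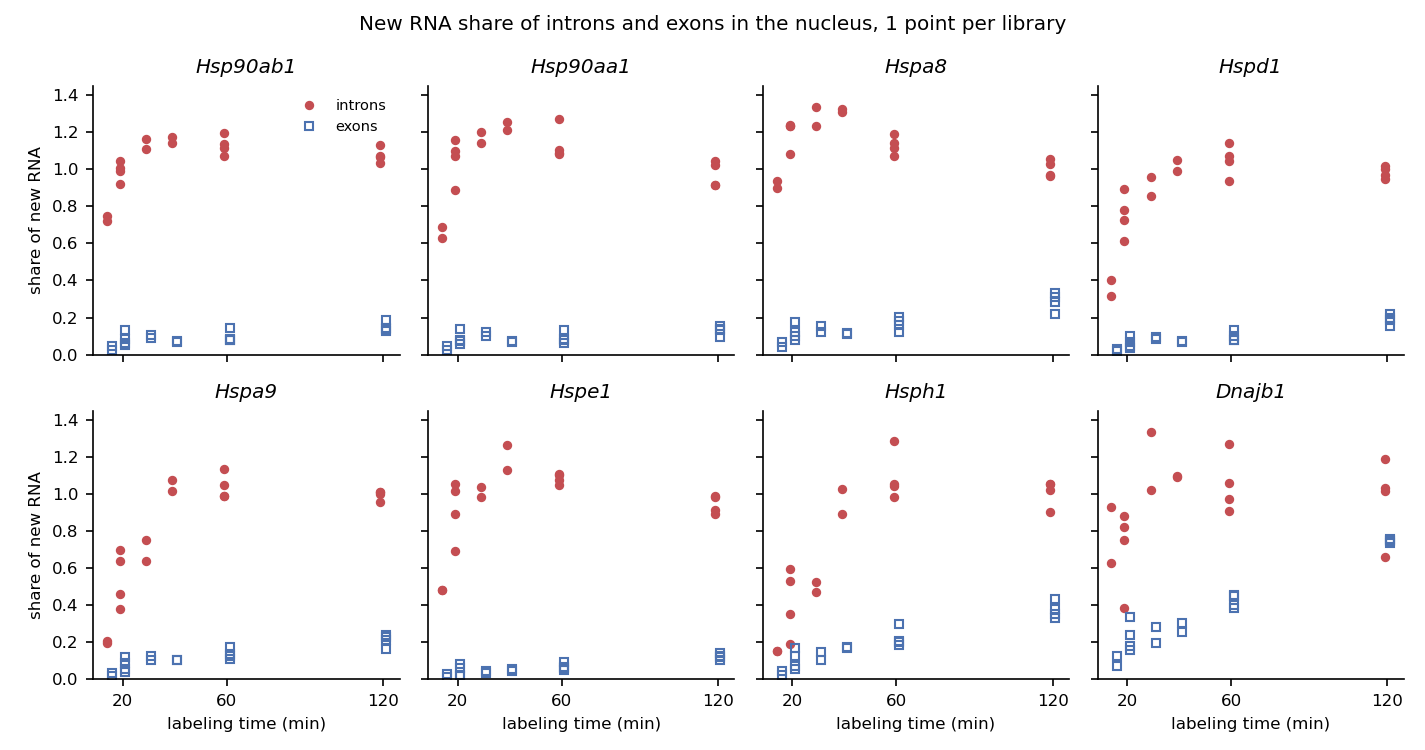
Share of new RNA in introns (filled circles) and exons (open squares) of the 8 genes with introns in the nucleus against labeling time in minutes, 1 point per library. At 15 min Hspa8 introns lie at 0.940 and 0.901 and Hsph1 introns at 0.154 and 0.149, and exons lie below introns at 20 min in all 8 genes.

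The 3′ UTRs were searched for ATTTA, the core of the AU-rich elements that bind mRNA decay factors, in 1 transcript per gene. It was found once or more in Hspa1b, Hsph1, Hspa8, Hsp90aa1, Hspd1 and Hspa9, and not in Hspa1a, Dnajb1, Hsp90ab1 and Hspe1, while 66.6% of 19360 genes with a 3′ UTR of 100 bases or more held it. The longer form TATTTAT was found in Hsph1 alone of the 10 genes, and in 27.8% of all. It is shown with 12 bases on either side of ATTTA, which is in capitals.
Hsph1, 78 bases into the 3′ UTR: cagactgagtctATTTAtattttcttttt
Dnajb1, with the highest share of new RNA of the well-counted genes, and Hspe1, with the lowest, both held no ATTTA in UTRs of 1834 and 187 bases.

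Of 54 other chaperone genes, comprising HSF factors, the cytosolic Hsp70 and Hsp40 system, Hsp90 cochaperones, small heat shock and other stress targets, and mitochondrial chaperones and proteases, 51 or 52 were tested per fraction. None was called over labeling time in any fraction. Between sets at 120 min in whole cells, 8 of 52 were higher in replicates 3 and 4, beside 11.5% of all genes, among them Bag3 by 1.13, Dnaja1 by 0.57 and Fkbp4 by 0.59, and 1 was lower, Grpel2 at -0.64. In the membrane fraction 16 of 51 were higher, with Dnaja1, an Hsp40 cochaperone, at 1.41 and Chordc1, an Hsp90 cochaperone, at 1.34, and 4 were lower, beside 24.8% of all genes called in either direction. In the nucleus 1 of 52 was higher and 9 were lower, beside 22.2%. Between nucleus and cytosol, 25 of 51 were lower in the nucleus and 7 were higher, beside 22.3% and 42.9% of all genes, with Bag1 at -2.06 and Serpinh1, the collagen chaperone of the endoplasmic reticulum, at 2.33. New RNA at 20 min stood higher in the nucleus in 43 of 51, beside 72.7%, and introns carried a higher share than exons in 45 of 48, beside 90.2%. The named genes of this list were chosen after their values were seen.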

How the data were processed

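Nuclear, cytosolic, membrane and whole-cell RNA of 4sU-labeled mESCs was measured by poly(A)-selected, stranded RNA sequencing with paired reads of 75 bases after alkylation (SLAM-seq). Per the labels, the authors aligned reads to GRCm38 (mm10), and the submitters' processing notes name STAR 2.7.6, HTSeq 0.11.1 and RSEM 1.3.3. The authors deposited raw counts of reads per gene and counts of T positions and T2C mutations per exon, gene and intron, with known variants removed. They also deposited each library's conversion rate, a fraction, and the deposited ratio is T2C over T counts divided by it.

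Levels were tested on the counts by edgeR 4.0.16 under R 4.3.3, with TMM scaling after filterByExpr, the quasi-likelihood test and Benjamini-Hochberg adjustment over all genes, with all 18 libraries of a fraction fitted together in 9 groups. Fractions were compared in 1 fit of 54 libraries. T2C counts were tested in the same way, with the log of T counts times conversion rate as offset, where no library had fewer than 400 T counts. Genes were called at an adjusted p under 0.05 if the log2 change exceeded 0.5 in size. The tests were tried on simulated counts with 200 changed genes. TPM used annotated exon lengths. Groups came from the labels. Alternatives were DESeq2 1.42.0, limma 3.58.1 on log2(share + 0.01), RLE scaling, no filter on low counts, a minimum of 100 or 2000 T counts, shares scaled to an equal median, a replicate block, each replicate left out, the 120 min libraries of replicates 3 and 4 left out, and fits within 1 replicate set, the last added after seeing the data. Reads carry no molecular identifiers, and errors are spreads between libraries.

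All fractions of a culture come from the same cells by design, and deviations of fractions of the same culture correlated at r = -0.197 to 0.714 over 27 pairs of libraries. Genes named are the 10 heat shock genes, any other chaperone gene called over labeling time (none was), 7 other chaperone genes chosen after their values were seen, and the 5 genes whose level over whole-cell libraries was most like that of summed Hspa1a and Hspa1b. The genes and lists were chosen with earlier results of these data known. Python 3.11.15 with pandas 2.3.3 and numpy 2.4.6 was used.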

Additional observations from a re-analysis of the deposited data

How the results depend on the processing

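Of the counts of heat shock genes called, 388 stayed within 1.5 times their value over the alternatives tried and 69 did not. Of the log2 changes of single genes called in levels, between nucleus and cytosol or between introns and exons (rises of the share over time are given apart), 529 kept direction and call, 85 lost the call and 7 reversed. For levels, the nuclear comparison of 60 with 20 min called 3 genes without a filter on low counts and 3 with the replicate block instead of 0. That of 120 with 20 min called 3 with DESeq2, 3 without the filter and 4 with the block instead of 1. With the block, replicates 3 and 4 against 5 and 6 at 120 min gave 4 genes in the nucleus instead of 2 and 7 in the cytosol instead of 4. Nucleus against cytosol gave 1 gene within replicates 5 and 6, and membrane against cytosol gave 1 within replicates 1 and 2. Deviations of the same number at different times correlated at r = 0.552 to 0.798 in nuclear replicates 1 and 2, 0.609 to 0.709 and 0.609 to 0.724 in the 2 earlier cytosolic sets, 0.495 to 0.73 in membrane replicates 1 and 2, but at -0.22 to 0.791 in nuclear replicates 3 and 4 and as low as -0.394 in whole cells, so that the numbers were not taken as pairs there. In the time comparisons of the paired sets the block called 0 heat shock genes by level, as without it.

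For the share of new RNA in nucleus against cytosol, scaling to an equal median gave 2 genes at 20 min, 4 at 60 min and 1 at 120 min. At 60 min limma gave 1, replicates 3 and 4 alone 5, and replicates 5 and 6 alone 0. The log2 differences that reversed on scaling were those of Dnajb1 (-0.59), Hspa8 (-0.0742), Hsp90ab1 (-0.0494) and Hspe1 (-0.48) at 20 min and Hsph1 (-0.20) and Hspa9 (-0.27) at 60 min, and Hsph1 reversed to -0.0434 within replicates 5 and 6. Over time, limma gave 0 genes in the nucleus for 60 against 20 and for 120 against 60 min and 5 in whole cells for 60 against 20 min. Scaling gave 8 and 0 genes in the nucleus, 4 and 0 in the cytosol, 3 and 0 in the membrane fraction and, for 60 against 20 min, 2 in whole cells. The counts on that scale hold calls in either direction and are not counts of rises. Unscaled, the nuclear log2 changes from 20 to 60 min ran from -0.16 to 0.77, against a median of 1.18 over all genes. Scaling removes the rise that all genes share, so that of 48 called rises 42 were below 0 on that scale (-0.81 to 0.38). The cause of the other shifts was not tested.

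With 1 replicate left out, counts of called genes in levels ran from 0 to 3 for 60 against 20 min and 0 to 2 for 120 against 20 min in the nucleus. Between sets they ran from 0 to 2 and 0 to 2 in the nucleus, 4 to 7 and 1 to 7 in the cytosol, 3 to 6 in the membrane fraction at 60 min, and 0 to 3 and 0 to 6 in whole cells, at 60 and 120 min. They ran from 2 to 5 for nucleus against cytosol and 0 to 2 for membrane against cytosol. For shares they ran from 0 to 3 at 60 min and 0 to 1 at 120 min for nucleus against cytosol. Over time they ran from 0 to 1 and 0 to 9 in the nucleus, 0 to 8 for 120 against 60 min in the cytosol, 1 to 8 for that comparison in the membrane fraction, and 0 to 8 and again 0 to 8 in whole cells. These counts hold calls in either direction. In whole cells from 60 to 120 min, all 10 genes had a lower share at 120 min as labelled in replicate 6. Leaving out 1 library leaves a group with 1, which is then assumed to vary like the other groups. Depth limited Hspa1a most, with 2 to 68 reads per library.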

Other observations

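Over the 18 whole-cell libraries, the genes whose log2 CPM was most like that of the summed Hspa1a and Hspa1b counts were Eri3 (Pearson's r = 0.88), AI837181 (0.87), Plvap (0.86), Tcf15 (0.85) and Mrpl38 (0.85), out of 16848 genes compared. The libraries share their replicate sets, and the correlations are given as a description. None of these 5 genes is in the list of chaperone genes.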
